A study of Mus musculus with 4 samples.

Results

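Metallothioneins are small cytoplasmic proteins that hold zinc and copper ions through clusters of cysteine residues. The members here are the mouse metallothionein genes Mt1, Mt2, Mt3 and Mt4, chosen by gene symbol from the authors' deposited table of genes that differed between Elf4 knockout and wild-type colon with colitis. All 4 were among its 4121 genes. Elf4 encodes a transcription factor of the Ets family. RNA sequencing was done on inflamed distal colon of C57BL/6 mice 8 weeks old, with 2 wild-type and 2 Elf4 knockout samples. Mice of both genotypes had received 3% dextran sulfate sodium (DSS), which injures the colon epithelium, and tissue was collected on day 6, so every value comes from inflamed tissue and untreated colon is not analysed here. The sources used here do not say whether samples of the same genotype were separate animals, nor in which cells or by which allele Elf4 was removed.

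Mt1 and Mt2 are made in most tissues and respond to zinc and cadmium through the metal-responsive transcription factor MTF1, which binds short metal response elements near their starts. Glucocorticoids, the interleukin-6 and STAT3 pathway and oxidative stress also raise them, and they are regarded as part of the acute-phase response. Mt3 is best known from neurons, and Mt4 from stratified squamous epithelium such as skin and tongue.

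The table gives 1 FPKM value (sequenced fragments divided by the length of the transcript and the size of the library) per gene and genotype, into which the authors combined both samples. No spread between samples, SD or n can therefore be given, the depth is unknown, and no test could be run here. It holds only genes past the authors' call, so the authors' test stands behind every rise or fall named below. Genes that are not in it are not analysed here. How many genes were tested is not known, so no share listed over all genes can be set beside the counts of listed genes. Elf4 itself fell from 16.4 to 3.51 FPKM, a 4.68-fold difference (authors' deposited table, q = 0.000372). This q is the smallest given and was shared by 2233 of the 4121 listed genes, so it does not set a gene apart.

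The coding sequences of Mt1 and Mt2 are shown first because these transcripts dominated the family and because their likeness bears on how reads were shared out. They run 5′ to 3′ from the start codon, without the stop codon, from GENCODE M21 on GRCm38. Capitals mark the codons TGC and TGT, which encode cysteine.
Mt1: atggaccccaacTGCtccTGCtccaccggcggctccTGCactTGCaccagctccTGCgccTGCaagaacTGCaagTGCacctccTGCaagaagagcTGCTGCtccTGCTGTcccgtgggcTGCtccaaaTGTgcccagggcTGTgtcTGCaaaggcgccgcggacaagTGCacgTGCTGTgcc
Mt2: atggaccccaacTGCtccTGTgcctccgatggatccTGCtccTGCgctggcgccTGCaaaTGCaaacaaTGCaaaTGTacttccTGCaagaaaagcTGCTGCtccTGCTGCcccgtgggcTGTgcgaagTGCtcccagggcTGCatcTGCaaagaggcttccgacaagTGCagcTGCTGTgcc
Cysteine codons made up 20 of the 61 codons in Mt1 and 20 of 61 in Mt2. There were 20 of 68 in Mt3, whose coding sequence is longer and needed 21 gap bases in its alignment to that of Mt1, and 20 of 62 in Mt4. Mt1 and Mt2 had the same base at 79.2% of 183 aligned coding positions, and the other pairs at between 68.1% and 74.9%. The longest stretch shared exactly by the transcripts Mt1-201 and Mt2-201 was 20 bases, and by Mt1-201 and Mt3-201 it was 27 bases. The sources used here give neither the read length nor how reads that fit more than 1 place were assigned.

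The 4 genes lie on the plus strand of chromosome 8 within 43.1 kb, in the order Mt4 (ENSMUSG00000031757, chr8:94137197-94139031), Mt3 (ENSMUSG00000031760, chr8:94152607-94154146), Mt2 (ENSMUSG00000031762) and Mt1 (ENSMUSG00000031765, chr8:94179082-94180327), on GRCm38. The table gives Mt2 the span chr8:94170748-94173568, which starts 1916 bases before the annotated gene at chr8:94172664-94173568. That earlier position coincides with an end of Gm45774, an antisense gene at chr8:94170748-94173412 on the minus strand that covers most of Mt2. The sources used here do not say whether the library was stranded, so reads of Mt2 and Gm45774 cannot be told apart.

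The promoter windows of the 4 genes are shown because Mt1, Mt2 and Mt3 rose together while their neighbor Mt4 did not. Each runs 5′ to 3′ on the plus strand from 250 bases before the RefSeq start through the 50 bases that begin with it (RefSeq, GRCm38.p6). Capitals mark matches to the metal response element, searched on both strands as TGCACNC and TGCGCNC, so a match on the minus strand is shown as its reverse complement.
Mt1, chr8:94178839-94179138: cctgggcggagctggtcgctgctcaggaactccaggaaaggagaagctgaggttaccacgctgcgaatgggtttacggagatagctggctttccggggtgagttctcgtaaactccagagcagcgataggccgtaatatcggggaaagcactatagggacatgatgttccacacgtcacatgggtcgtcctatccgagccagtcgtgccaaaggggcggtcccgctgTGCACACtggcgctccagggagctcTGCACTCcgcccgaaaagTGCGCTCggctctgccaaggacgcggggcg
Mt2, chr8:94172368-94172667: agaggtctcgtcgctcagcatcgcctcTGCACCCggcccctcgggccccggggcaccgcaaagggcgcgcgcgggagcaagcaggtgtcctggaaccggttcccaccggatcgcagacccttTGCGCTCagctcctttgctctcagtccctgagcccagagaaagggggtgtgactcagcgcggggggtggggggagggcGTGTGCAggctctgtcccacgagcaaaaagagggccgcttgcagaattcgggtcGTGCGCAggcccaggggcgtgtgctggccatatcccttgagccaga
Mt3, chr8:94152357-94152656: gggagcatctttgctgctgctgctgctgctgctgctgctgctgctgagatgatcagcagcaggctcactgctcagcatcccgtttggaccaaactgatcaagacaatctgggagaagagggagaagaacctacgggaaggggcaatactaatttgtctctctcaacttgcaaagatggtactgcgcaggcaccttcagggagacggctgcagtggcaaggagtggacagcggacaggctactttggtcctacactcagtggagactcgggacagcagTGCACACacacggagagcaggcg
Mt4, chr8:94136954-94137253: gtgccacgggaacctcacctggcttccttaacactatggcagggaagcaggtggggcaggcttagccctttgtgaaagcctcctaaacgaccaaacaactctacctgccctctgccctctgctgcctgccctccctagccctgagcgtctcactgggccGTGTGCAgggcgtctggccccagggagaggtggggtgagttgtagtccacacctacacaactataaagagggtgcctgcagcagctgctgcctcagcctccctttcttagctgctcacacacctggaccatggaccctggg
Mt1 held 3 matches and Mt2 held 4, while Mt3 and Mt4 held 1 each. Of 32851 RefSeq promoter windows of the same length, 25.7% held at least 1 match, 1.97% at least 3 and 0.518% at least 4. A match is a run of letters and not a shown binding site.

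**Figure D1:**
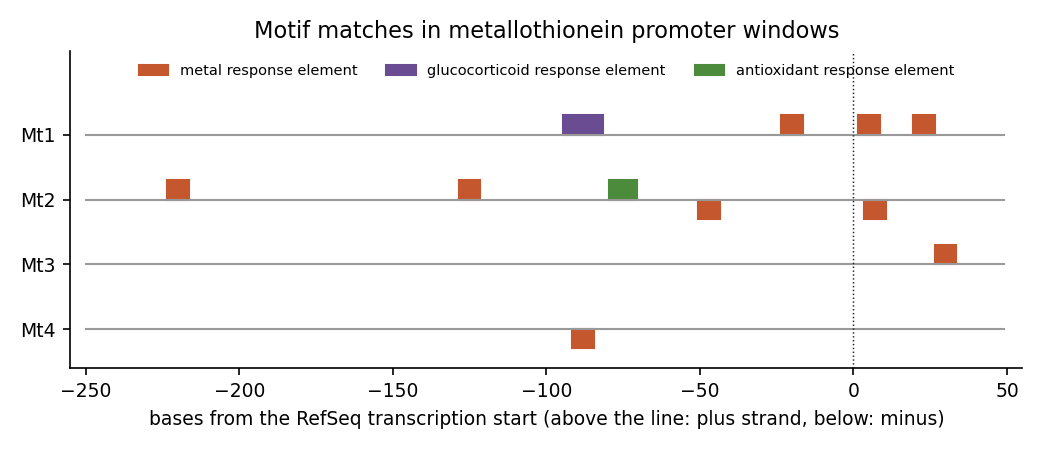
Places of motif matches in the promoter windows of Mt1, Mt2, Mt3 and Mt4, with the distance from the RefSeq transcription start in bases on the x axis and each match drawn to scale as a box above (plus strand) or below (minus strand) the line. The 3 metal response elements of Mt1 sit close to its start, and the 4 of Mt2 are spread along the window.

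Other motifs were searched in the same windows on both strands, and no match found overlapped a metal response element. The glucocorticoid response element, searched as its palindromic consensus, had 1 match in Mt1 and 0 in Mt2, Mt3 and Mt4, and 0.475% of all windows held it. The antioxidant response element TGACNNNGC had 1 match, in Mt2, and was in 12.4% of windows. The STAT motif TTCNNNGAA and the Ets motif CCGGAAGT had 0 matches in the 4 windows, beside 8.30% and 3.89% of all windows, which says only that these letters are not in these windows. GENCODE also annotates starts of Mt1, Mt2 and Mt3 that lie past the end of these windows, by 73 to 193 bases. The DNA before them is partly held in the first exons of Mt1-201, Mt2-201 and Mt3-201. These had 4 matches to the metal response element in 257 bases for Mt1, 3 in 212 bases for Mt2 and 3 in 224 bases for Mt3. Among protein-coding transcripts, 0.195%, 0.656% and 0.714% held at least as many in the same number of leading bases. The first exon of Mt4-201, 76 bases long, had 0. Some of these matches are the same as those in the promoter windows.

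Mt1 and Mt2, the widely expressed members, were far higher in the knockout tissue. Mt1 stood at 388 FPKM in wild-type tissue and at 8174 FPKM in knockout tissue. The rise was 21.0-fold, or 4.39 on the log2 scale of FPKM + 1 (authors' deposited table, q = 0.000372). Mt2 stood at 473 FPKM in wild-type tissue and at 10908 FPKM in knockout tissue, a 23.1-fold rise and a log2 ratio of 4.53 with the same q. Among the genes of the table, Mt2 and Mt1 ranked 108 and 137 by FPKM in wild type. In the knockout they ranked 3 and 4, or 2 and 3 when immunoglobulin and T cell receptor segments are left out. Only Fth1, the ferritin heavy chain gene that stores iron, was then higher, at 11087 FPKM (2667 FPKM in wild type, with q = 0.000694 by the authors' deposited table).

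Together Mt1 and Mt2 went from 861 to 19082 FPKM. Since FPKM is scaled by length, a share of summed FPKM approximates a share of transcripts. The share of Mt1 and Mt2 in the FPKM summed over the listed genes was 0.315% in wild type and 8.01% in the knockout. The denominator covers only genes that differed, so it is not a share of all transcripts.

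Mt3, the neuronal member, was much less abundant but rose by a like factor. Its level was 4.80 FPKM in wild-type and 111 FPKM in knockout tissue, a 23.1-fold rise with a log2 ratio of 4.27 (authors' deposited table, q = 0.000372). The proportions among the risen members were thus close in both genotypes. Mt2 was 98.6 times Mt3 in wild type and 98.6 times Mt3 in the knockout. Mt1 was 81.0 and 73.9 times Mt3, and Mt2 was 1.22 and 1.33 times Mt1. With no spread between samples, whether these proportions differ between genotypes was not tested. Mt1 and Mt3 share the longest exact stretch given above, and what part of the Mt3 value comes from reads of Mt1 or Mt2 was not tested.

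Mt4, the squamous epithelial member, went the other way at a very low level. Its level was 1.32 FPKM in wild-type tissue, and it was listed at 0 in knockout tissue (authors' deposited table, q = 0.0370). Since a 0 in such a table may stand for a failed estimate, its fold is not given. On the log2 scale of FPKM + 1 the difference was -1.21, beside a median of -0.76 over all listed genes.

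**Figure D2:**
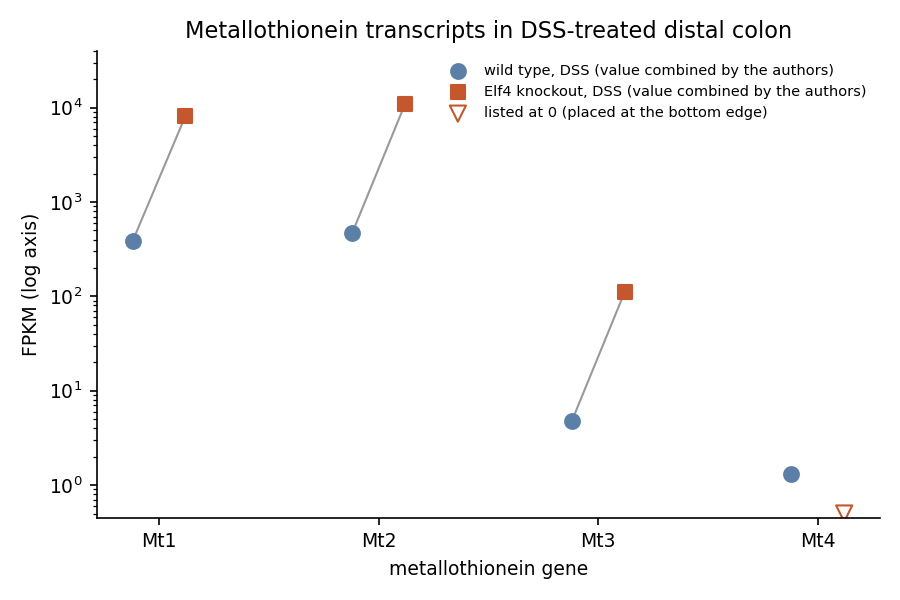
FPKM of Mt1, Mt2, Mt3 and Mt4 on a log axis, with 1 value per genotype as combined by the authors (circles wild type, squares Elf4 knockout, open triangle a value listed at 0 and placed at the bottom edge). The lines of Mt1, Mt2 and Mt3 are nearly parallel, at 21.0-fold, 23.1-fold and 23.1-fold, while Mt4 lies near 1 FPKM in wild type.

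In the table as a whole, 48.0% of listed genes were higher and 52.0% lower in the knockout. At least 20-fold rises from a wild-type value above 0 made up 0.655% of the listed genes, 27 in all, and 3 of these were Mt1, Mt2 and Mt3. By log2 ratio these ranked 17, 16 and 20 of 4121. Genes listed at 0 in the knockout, like Mt4, made up 1.09%. These counts describe the contrast from which the table was made, and nothing is read from them about the family.

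**Figure D3:**
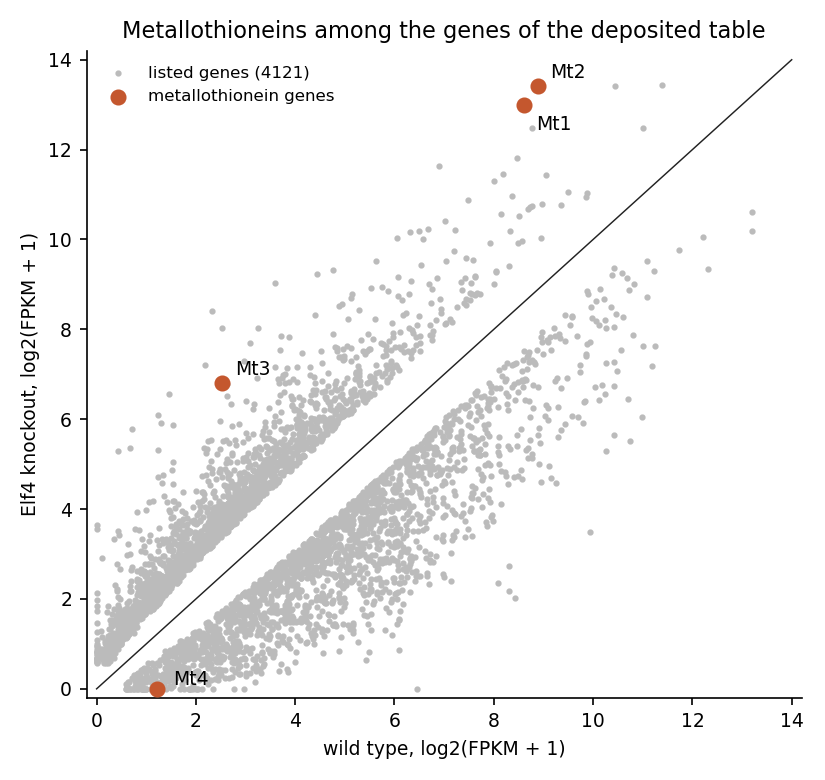
Each point is 1 gene of the deposited table, with log2(FPKM + 1) in wild type on the x axis and in Elf4 knockout on the y axis, and the line marks equal values. The empty band along the line reflects the authors' fold limit. Mt1 and Mt2 stand at the top of the knockout scale, Mt3 at a middle level and Mt4 at the lower left.

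The genes most like each member were found by distance over both genotypes on the log2(FPKM + 1) scale, among protein-coding listed genes. With only 2 values per gene this is a likeness of level and ratio, not of a pattern over samples. For Mt1 the nearest gene was Mt2, at a distance of 0.50, and the next was Saa3, an acute-phase serum amyloid gene, at 0.55. Saa3 went from 436 to 5686 FPKM, a 13.0-fold rise. The third was Dcn, the fibroblast proteoglycan decorin, at a distance of 1.62. Mt2 had the same order, Mt1, Saa3 and Dcn, so few genes came near the pair. For Mt3 the nearest were Pi15 (5.15 to 90.0 FPKM), Wfdc21 (5.54 to 80.1 FPKM) and the neutrophil-attracting chemokine gene Cxcl3 (3.51 to 147 FPKM). For Mt4 they were Gm6086, Slc13a1, a sulfate transporter gene, and Sh3rf2, each at 1.22 to 1.38 FPKM in wild type and at most 0.0914 FPKM in the knockout.

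Listed neighbors of the cluster moved both ways. Within 1000 kb of the cluster, 11 of 34 annotated protein-coding genes were listed, of which 6 were higher and 5 lower. That split is near the one over all listed genes, 48.0% higher and 52.0% lower. The nearest listed gene before Mt4 was Gnao1, encoding a G protein subunit of neurons, 168 kb away, which rose 2.97-fold from 6.32 to 18.7 FPKM. After Mt1 the nearest was Pllp, encoding the membrane protein plasmolipin, 495 kb away, which fell 12.6-fold from 66.2 to 5.26 FPKM. Beyond it Cx3cl1, a chemokine gene, fell 3.85-fold, Coq9, for ubiquinone synthesis, fell 2.33-fold (authors' deposited table, q = 0.0174) and Dok4, a docking protein gene, fell 7.97-fold. The farther carboxylesterase genes Ces1g, Ces1f and Ces1d, chosen after their values were seen, rose 11.7-fold, 8.33-fold and 4.43-fold at 800 to 939 kb. These have similar copies, so their split of reads is uncertain.

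**Figure D4:**
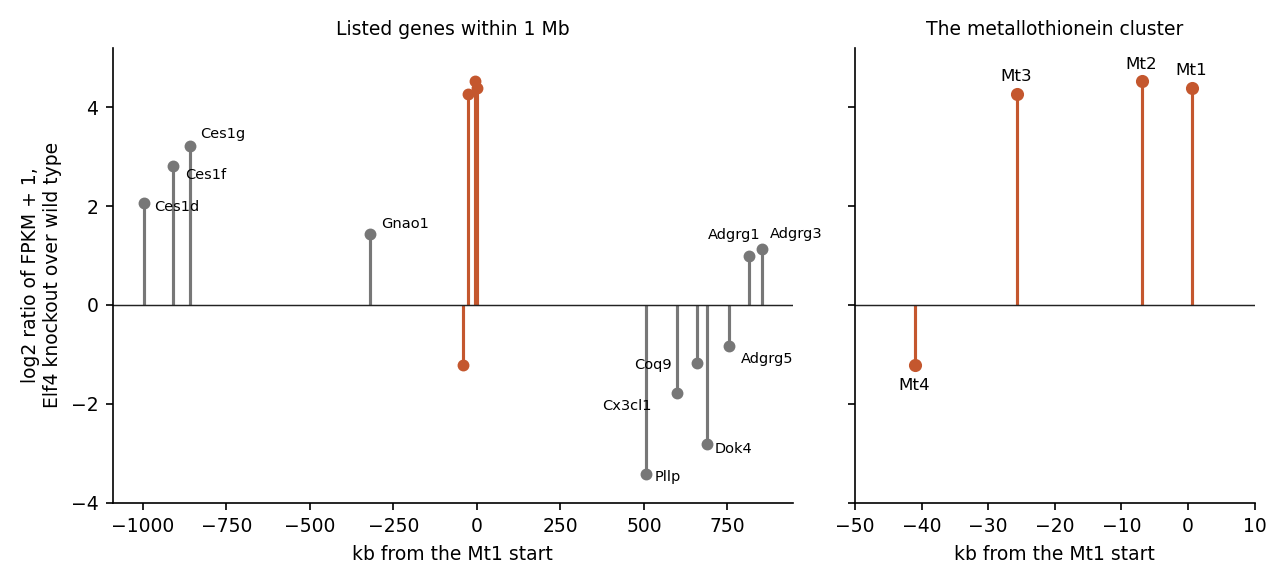
Log2 ratio of FPKM + 1, Elf4 knockout over wild type, against the distance in kb from the Mt1 start, for listed genes within 1 Mb (left, metallothioneins in orange and other genes in gray) and for the cluster alone (right). Mt3, Mt2 and Mt1 stand above 4, while Mt4 and the neighbors after the cluster from Pllp to Adgrg5 are below 0.

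Zinc transporters bring to the cell the metal that metallothioneins hold. Of 14 importer genes of the Slc39 family, 6 were listed, 3 higher and 3 lower, with a median log2 ratio of -0.09 beside -0.76 over all listed genes. Slc39a14, an importer of zinc, manganese and iron that inflammation is known to raise, rose 7.62-fold from 18.6 to 142 FPKM. Slc39a6 rose from 5.49 to 15.2 FPKM and Slc39a8, a zinc and manganese importer, from 3.76 to 8.58 FPKM (authors' deposited table, q = 0.00359 for Slc39a8). Slc39a4, the importer that takes up dietary zinc at the luminal face of intestinal epithelium, fell 5.95-fold from 108 to 18.2 FPKM. Slc39a11 fell from 45.7 to 6.90 FPKM (authors' deposited table, q = 0.00211) and Slc39a9 from 34.7 to 14.7 FPKM. The importers thus moved both ways, as did all listed genes, of which 48.0% were higher. Of the 10 zinc exporters of the Slc30 family 0 were listed, among them Slc30a1, a known MTF1 target. Mtf1 was not listed either. Of 12 genes in a list of MTF1 and other metal-induced genes, the 2 listed rose. These were Hmox1, the heme oxygenase gene (20.6 to 596 FPKM), and Gclc, for glutathione synthesis (19.8 to 63.1 FPKM). Both are also counted among the antioxidant genes below. Other genes, such as S100a8 and S100a9, are likewise counted in different lists, so the lists are not independent.

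Of 21 copper-handling genes, 9 were listed, 6 higher and 3 lower, beside 48.0% higher among all listed genes. The list's median log2 ratio was 1.36, beside -0.76 over all listed genes. Lox, encoding a copper enzyme that crosslinks collagen, rose 8.24-fold to 112 FPKM. Cp, encoding the plasma copper oxidase ceruloplasmin, rose 4.54-fold to 183 FPKM, and the metalloreductase gene Steap4 rose 4.05-fold to 109 FPKM. Those that fell were Heph, encoding the copper oxidase of gut epithelium that aids iron export (60.3 to 8.00 FPKM), Sco1, for copper delivery to cytochrome oxidase (16.2 to 5.58 FPKM), and Slc31a1, the copper importer (46.3 to 22.9 FPKM, with q = 0.00211 by the authors' deposited table). The copper chaperones Atox1 and Ccs were not listed.

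Of 16 genes that withhold metals from microbes, 11 were listed, 8 higher and 3 lower (median log2 ratio 2.06), beside 48.0% higher among all listed genes. S100a8 and S100a9, whose products form the zinc- and manganese-binding protein calprotectin of neutrophils, rose from 101 to 1202 FPKM and from 178 to 1888 FPKM. Lcn2, encoding a siderophore-binding protein, rose from 88.7 to 1163 FPKM. The lower members were Ltf, encoding lactoferrin (14.4 to 2.05 FPKM), the iron exporter gene Slc40a1 (104 to 30.7 FPKM) and the transferrin receptor gene Tfrc (47.2 to 14.8 FPKM). The 4.16-fold rise of Fth1 belongs to this list.

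Antioxidant genes, some of whose products share the thiol chemistry of metallothioneins, moved both ways. Of 33 genes, 11 were listed, 6 higher and 5 lower, near the 48.0% higher among all listed genes. The list's median log2 ratio was 1.32, beside -0.76 over all listed genes. Besides Hmox1, the largest rises were in Gpx3, the secreted glutathione peroxidase (92.3 to 686 FPKM), and Slc7a11, the cystine importer that supplies cysteine (3.81 to 29.6 FPKM). The largest falls were in Gpx2, the gut epithelial glutathione peroxidase, which fell 22.9-fold from 569 to 24.9 FPKM, in Prdx6, a peroxiredoxin (1220.2 to 259.6 FPKM), and in Gss, glutathione synthetase (46.3 to 10.1 FPKM).

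Glucocorticoid-responsive genes were considered because the hormone is a known inducer of Mt1 and Mt2. Of 18 genes, 13 were listed, 12 higher and 1 lower, beside 48.0% higher among all listed genes. The list's median log2 ratio was 2.06, beside -0.76 over all listed genes. Dusp1, a phosphatase that restrains stress kinases, rose 12.9-fold to 380.5 FPKM, Pdk4, a kinase that restrains pyruvate oxidation, rose 8.75-fold to 17.0 FPKM and Zbtb16, a transcription factor, rose 8.42-fold to 14.7 FPKM. Fkbp5 and Tsc22d3, chosen after their values were seen, rose 3.17-fold and 2.75-fold. The enzymes that set the hormone within cells moved in opposite directions. Hsd11b2, which inactivates corticosterone, was the member that fell, 13.7-fold from 62.1 to 4.55 FPKM. Hsd11b1, which regenerates it, rose 4.68-fold from 20.1 to 93.9 FPKM (authors' deposited table, q = 0.00312) and was chosen after its values were seen. Nr3c1, the gene of the glucocorticoid receptor, was not listed, nor were Anxa1, Cyp11a1, Cyp11b1 and Sult1a1. Whether the hormone had a part in the rise of Mt1 and Mt2 was not tested.

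Of 27 genes of the interleukin-6 family and STAT3 targets, 16 were listed, 14 higher and 2 lower (median log2 ratio 1.44). This stands beside 48.0% higher and a median of -0.76 over all listed genes. Il6 rose 10.2-fold from 11.6 to 118 FPKM, and Osm, encoding the related cytokine oncostatin M, rose 12.1-fold from 1.54 to 18.7 FPKM. The 2 that fell were Saa1, an acute-phase gene made in colon epithelium (1793 to 233 FPKM), and Il22ra1, the epithelial interleukin-22 receptor (11.0 to 2.31 FPKM). Stat3 and Socs3 were not listed.

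**Figure D5:**
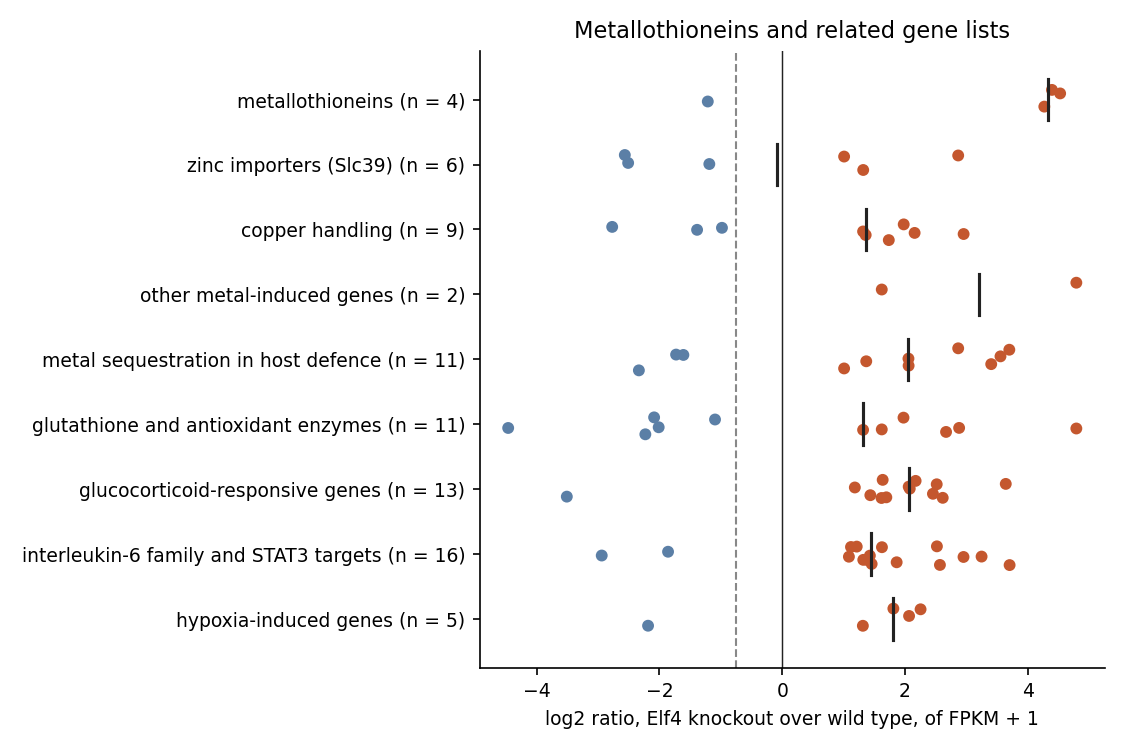
Log2 ratio of FPKM + 1, Elf4 knockout over wild type, for the listed members of each gene list, 1 point per gene (orange higher, blue lower), with a black bar at the list's median and a dashed line at the median of all listed genes, -0.76. Mt1, Mt2 and Mt3 lie above 4, near Hmox1 at the right edge, and the zinc importers fall on both sides of 0.

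The samples are whole tissue, so a change in the number of cells of a type and a change in RNA per cell cannot be told apart. Listed cell type markers moved both ways, beside 48.0% higher and 52.0% lower among all listed genes. All 9 epithelial markers were listed and lower, with their sum going from 7265 to 542 FPKM. Of 8 neutrophil markers, 8 were listed and 7 were higher (sum 1176 to 4065 FPKM). The exception was Ly6g, a neutrophil surface marker, which fell 5.86-fold from 854 to 146 FPKM, and without it the sum went from 322 to 3920 FPKM. The listed markers of macrophages (4 of 11, 145 to 519 FPKM), fibroblasts (5 of 7, 1083 to 4204 FPKM) and endothelium (6 of 6, 90.9 to 307 FPKM) were all higher. The part of any of these in the rise of Mt1 and Mt2 was not tested. Of 6 markers of neurons and glia, a source of Mt3 in the nervous system, 4 were listed and higher, by between 2.10-fold for Sox10 and 3.20-fold for Uchl1 (authors' deposited table, q = 0.0368 for Sox10). Their summed level went from 32.3 to 101 FPKM, and the part of neurons and glia in the 23.1-fold rise of Mt3 was not tested. Of 6 squamous epithelial markers 0 were listed, and smooth muscle had 0 of 5. The 5 listed T cell markers of 6 were lower (80.6 to 27.0 FPKM), as was Ms4a1, the only listed marker of 5 for B and plasma cells. No listed marker was at 0 in either genotype.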

How the data were processed

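Per the submitters' processing notes, Bowtie 0.12.2, Cufflinks 2.2.1 and the build mm8 were used, with no roles given. The deposited table holds FPKM values, 1 per genotype, and the authors' p-value and q-value, per the file headers. How samples were combined they do not say. By identifier, 4114 of 4121 genes overlapped the same gene in GENCODE M21, so coordinates were read as GRCm38, with 1 added to starts. Folds came from FPKM values, and log2 ratios from FPKM + 1, which understates low genes. FPKM of transcripts as short as these (398 to 1085 bases, beside a median of 3145 bases for the longest transcript of listed genes) depends on the effective length the authors' tool assumed.

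The members, 9 pathway lists, 10 marker lists and motifs were chosen with earlier results of these data known, and 1 marker is not reported here. Named were the members, Elf4, the 5 nearest listed neighbors, every listed member of a pathway or marker list with up to 6 listed, otherwise the 3 largest rises and 3 largest falls with at least 1 FPKM, and the 3 genes nearest each member in level; marker genes are mostly given as counts and sums. The text marks other names as picked once values were known. List counts and motif matching were tested on simulated data. Python 3.11.15, numpy 2.4.6, pandas 2.3.3, biopython 1.88 and matplotlib 3.10.9 were used.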

Additional observations from a re-analysis of the deposited data

How the results depend on the processing

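No paired analysis was possible because each genotype has 1 value in the table. Leaving out each sample and another normalization could not be run either, so the weight of any 1 sample is unknown. A value was taken as moved past a 1.5-fold shift. Of 40 alternative values, 27 stayed within it, 12 moved and 1 reversed. Subtraction of the table median gave 10 of those that moved and the 1 that reversed, since that shift is past the limit by construction. The tally therefore reflects the settings chosen. The number of listed metallothionein genes was 3 with at least 5 FPKM or with q of at most 0.01, each without Mt4. The log2 ratio of Mt4 was -3.82 with a pseudocount of 0.1, and none could be had with 0. Subtracting the table median of -0.76 raises every value by construction: to 5.15 for Mt1, 5.28 for Mt2, 5.02 for Mt3 and -0.46 for Mt4, and for the list medians to 2.12 for copper handling, 2.81 for metal sequestration, 2.07 for antioxidant enzymes, 2.82 for glucocorticoid-responsive genes, 2.20 for the interleukin-6 family and 2.57 for hypoxia-induced genes. The median of the zinc importers turned from -0.09 to 0.67. With the 5-letter core TGCAC or TGCGC, Mt3 had 2 separate matches in its promoter in place of 1.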

Other observations

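Of 15 hypoxia-induced genes, 5 were listed, 4 higher and 1 lower, with a median log2 ratio of 1.81, beside 48.0% higher and a median of -0.76 over all listed genes. Hilpda, encoding a lipid droplet protein, rose from 10.1 to 51.9 FPKM, and Adm, encoding the vessel-dilating peptide adrenomedullin, from 7.95 to 36.4 FPKM. Bnip3, a mitophagy gene, rose from 27.5 to 98.9 FPKM and Pfkfb3, a regulator of glycolysis, from 27.1 to 68.8 FPKM. Car9, encoding a zinc enzyme that hydrates carbon dioxide, fell from 29.9 to 5.80 FPKM. Hif1a and Vegfa were not listed.

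Without immunoglobulin and T cell receptor segments, Mt1 and Mt2 together made up 0.354% of the summed FPKM of the other 4018 listed genes in wild type and 10.6% in the knockout.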
